A study of Mus musculus with 47 samples.

Results

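The comparison described is 10 cGy of X-rays against no irradiation in JB6 mouse cells, pooled over 2 cell lines and 2 times. Its members were chosen by label: the 11 arrays of cells collected 2 or 24 h after 10 cGy and the 12 arrays of untreated (sham-exposed) cells at the same times, 23 of the 47 arrays of the study. RNA was measured on Affymetrix mouse arrays, and every value given is a log2 RMA signal, so a difference of 1 is a doubling. JB6 cells, labelled as progenitor cells, are an epidermal line used to study tumour promotion. All cells had been transduced by retrovirus and selected with puromycin. The shRNA cells carried a short hairpin RNA against AnxA2, which encodes annexin A2, a calcium-dependent membrane-binding protein, and the vector cells carried the vector without it. Each of the shRNA 2 h, shRNA 24 h and vector 2 h strata held 3 untreated and 3 irradiated arrays, and the vector 24 h stratum held 3 untreated and 2 irradiated arrays (replicates 1 and 3). Untreated cells at 6 h are not among the samples used, so the 6 h arrays stayed outside the comparison. Each genotype is 1 line, and the labels do not say whether replicates were separate cultures, so p-values measure only the spread between these samples, which may be technical.

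Anxa2 matched the labels on every array of the comparison, with signals between 10.58 and 11.23 in shRNA cells and between 12.25 and 12.66 in vector cells. The labels state a loss of more than 95% of this RNA; the untreated group means, 11.12 against 12.54 at 2 h and 10.70 against 12.38 at 24 h, lie closer than that. Anxa2 did not pass the test for dose (0.01 ± 0.04, SE, n = 11 against 12; limma, Benjamini-Hochberg adjusted p = 0.953). Of the mesenchymal markers, Vim (median 13.20), Col1a1 (11.10), Col1a2 (12.76) and Fn1 (11.31) were all bright. Of 5 defining epithelial and keratinocyte markers, Krt14 (median 6.52) and Krt5 (4.60, lowest 4.25) lay above the low-signal limit of 4.35 by their medians, whereas Trp63, Cdh1 and Epcam lay under it, so the epidermal label rests on few markers here. Krt14 split by line, at 6.52 to 7.10 in shRNA cells and 3.22 to 4.39 in vector cells. The leukocyte, muscle and endothelial sets had 1 of 4, 2 of 4 and 1 of 4 defining markers above that limit. Replicates 3 of untreated and of 10 cGy vector cells at 2 h stood apart from their groups: the SD over genes of an array's difference from the rest of its group was 0.395 and 0.385 for them and 0.131 to 0.263 for the other 21 arrays. Results that move without these 2 arrays are given with and without them. In fits with 100 cGy arrays, replicate 3 of 100 cGy vector cells at 2 h (0.308 by the same measure) was left out together with them.

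Ionizing radiation breaks DNA. The kinase Atm senses double-strand breaks and, with other kinases, stabilises the transcription factor p53, which switches on genes that halt the cell cycle, repair DNA or start cell death. Cdkn1a (the cell cycle inhibitor p21) and Mdm2 (the ubiquitin ligase that degrades p53 and so limits the response) are its best known targets. The comparison asks whether the low dose left a mark on these or any other genes that both lines and both times share.

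After 10 cGy, 0 of 8675 tested genes were called over the 4 strata (0%), by limma with line and time as a joint block and a Benjamini-Hochberg adjusted p under 0.05. The smallest adjusted p was 0.366. At an unadjusted p under 0.05 there were 810 genes (9.34%), of which 192 (2.21%) lay higher and 618 (7.12%) lower. This split depends on the scaling: with each array centred on its own median, 900 genes were counted, 580 higher and 320 lower. The median difference over all genes was -0.01 with the deposited values and 0.02 with centring.

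The intervals bound the size of a response shared by the strata. The median half-width of a gene's 95% confidence interval was 0.13 on the log2 scale. For 7061 genes (81.4%) the interval lay wholly within a 1.2-fold difference either way, for 8646 (99.7%) within 1.5-fold, and for all 8675 within 2-fold. Only 29 genes had an interval that reached past 1.5-fold, and the largest estimate of any gene was 0.43 in size. These are intervals for single genes and for the mean of the 4 strata, so a response of 1 line at 1 time can be larger. RNA was extracted from whole cultures, where a change in fewer cells and a smaller change in each cell cannot be told apart.

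Promoters of Cdkn1a and Mdm2 are shown because the comparison of doses that follows turns on these p53 targets. Both were read from RefSeq (GRCm38.p6) as the 250 bases before an annotated start, 5′ to 3′ on the strand of the gene, and capitals mark matches to the p53 half-site consensus, a 10-base motif searched on both strands. The Cdkn1a promoter lies at chr17:29090729-29090978 on the plus strand and that of Mdm2 at chr10:117710759-117711008 on the minus strand.
Cdkn1a: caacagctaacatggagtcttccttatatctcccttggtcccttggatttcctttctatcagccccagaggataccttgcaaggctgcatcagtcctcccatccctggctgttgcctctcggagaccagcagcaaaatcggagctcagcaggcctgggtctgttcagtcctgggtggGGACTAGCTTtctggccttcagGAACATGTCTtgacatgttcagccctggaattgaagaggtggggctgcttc
Mdm2: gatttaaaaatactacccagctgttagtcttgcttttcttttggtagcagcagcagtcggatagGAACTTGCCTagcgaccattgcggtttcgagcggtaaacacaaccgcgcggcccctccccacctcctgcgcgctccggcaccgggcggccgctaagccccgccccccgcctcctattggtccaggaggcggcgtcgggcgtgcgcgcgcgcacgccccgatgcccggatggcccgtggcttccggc
In the Cdkn1a promoter the matches start 73 and 51 bases before the start site, with 12 bases between them, a spacing within the 0 to 13 bases that define a p53 site pair. The Mdm2 promoter has 1 match, 186 bases before its start. Bases after the start or further upstream were not searched for the motif, so p53 sites elsewhere in these genes are not covered. Among 32851 promoters of this length, 7.13% hold at least 1 match and 21 (0.0639%) hold such a pair. A second annotated Cdkn1a start and the promoters of Phlda3, Slc19a2 and Anxa8 have none of these letters in the window, and that of Ccng1 has 1.

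Mdm2 did not pass the test after 10 cGy. In shRNA cells at 2 h the untreated arrays read 9.78, 9.93 and 9.81 and the 10 cGy arrays 9.85, 9.73 and 9.86. At 24 h the same line read 9.38, 9.37 and 9.37 untreated against 9.32, 9.22 and 9.34. The first sets overlap, and in the second all irradiated arrays are slightly lower. In vector cells at 2 h, untreated arrays read 9.69, 9.55 and 9.40 and irradiated arrays 9.91, 9.90 and 9.58, with 2 of 3 above the untreated range. At 24 h the vector arrays read 8.70, 8.85 and 8.58 against 8.76 and 8.65, which overlap. The pooled Mdm2 difference was 0.04 ± 0.05 (SE, n = 11 against 12; 95% interval -0.08 to 0.15; limma, Benjamini-Hochberg adjusted p = 0.847); the upper end is 1.11-fold. The value was -0.05 with shRNA cells alone and -0.05 with the 24 h arrays alone.

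Cdkn1a lay slightly higher in each stratum without passing the test. Its untreated shRNA arrays at 2 h read 10.70, 10.55 and 10.67 against 10.67, 10.65 and 10.64 after 10 cGy, and at 24 h 9.98, 10.00 and 9.95 against 10.05, 9.81 and 10.24. The untreated vector arrays at 2 h read 10.44, 10.65 and 10.16 against 10.84, 10.61 and 10.29, and at 24 h 9.37, 9.44 and 9.17 against 9.69 and 9.57. Only the last of these sets does not overlap. The 4 stratum differences were 0.01, 0.06, 0.16 and 0.30, and the pooled difference was 0.12 ± 0.07 (SE, n = 11 against 12; 95% interval -0.01 to 0.26; limma, Benjamini-Hochberg adjusted p = 0.571). Its interval reaches higher than those of Mdm2, Phlda3 and Ccng1.

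Phlda3, a p53 target that restrains Akt signalling, lay highest relative to its error of Mdm2, Cdkn1a, Phlda3 and Ccng1. In shRNA cells at 24 h the untreated arrays read 9.40, 9.60 and 9.35 and the irradiated arrays 9.62, 9.65 and 9.68, without overlap. In the other strata the arrays overlapped, with differences of 0.04 in shRNA cells at 2 h, 0.24 in vector cells at 2 h and 0.03 in vector cells at 24 h. The pooled difference was 0.13 ± 0.06 (SE, n = 11 against 12; 95% interval 0.01 to 0.25), with an unadjusted p of 0.0301 by limma and a Benjamini-Hochberg adjusted p of 0.497. Ccng1 (cyclin G1), another classical target, gave -0.01 ± 0.06 (95% interval -0.13 to 0.10). Its sign changed between settings.

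**Figure D1:**
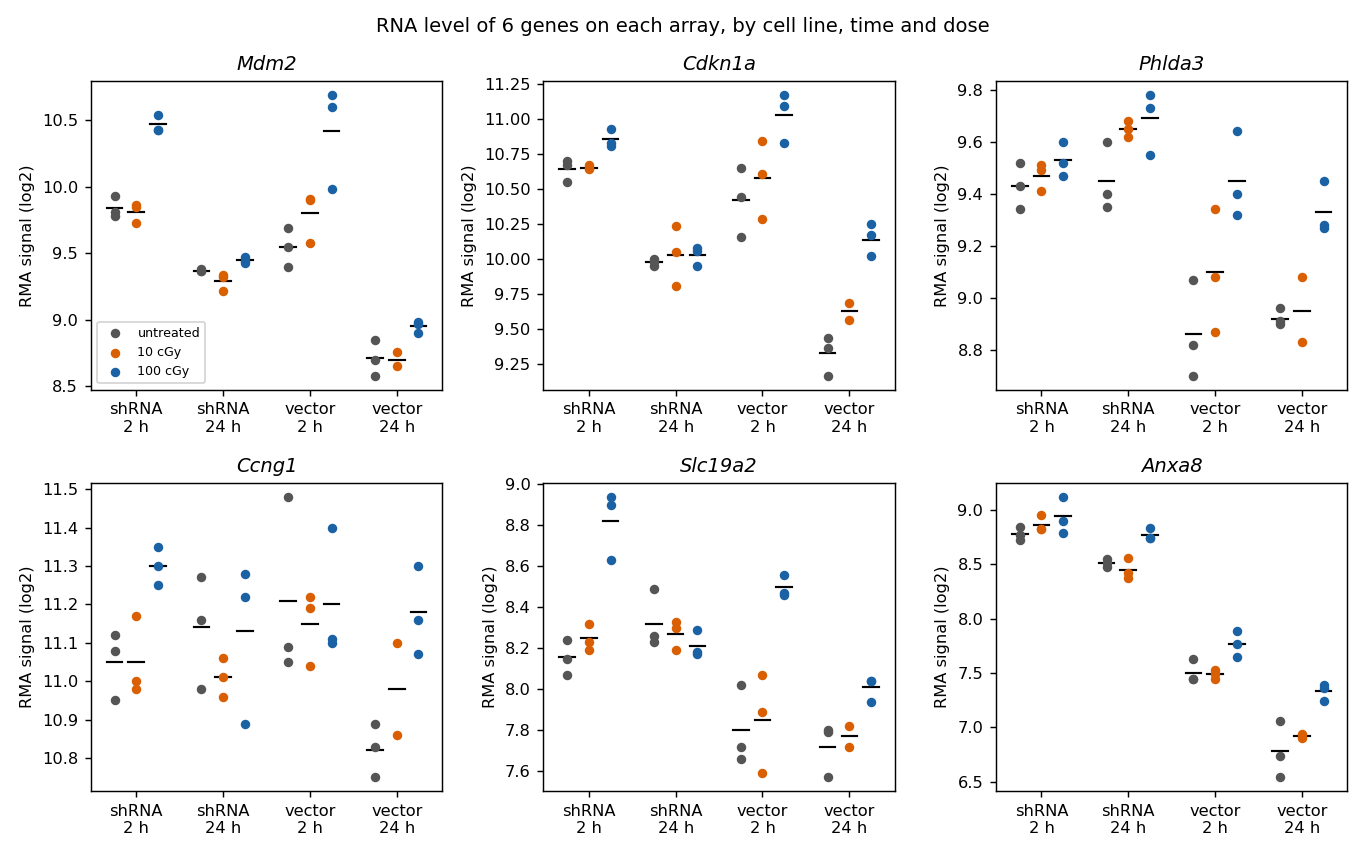
RMA signal (log2) of 6 genes on each array of untreated (grey), 10 cGy (orange) and 100 cGy (blue) cells in the 4 combinations of line and time; black lines are group means, and each panel has its own axis. The 10 cGy points of Mdm2 overlap or touch the untreated range in every stratum but shRNA 24 h, where they lie below it, while all 100 cGy points of Mdm2 lie above it.

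The 100 cGy arrays at the same times show what a larger dose did to these genes in the same cells. Fitted together with the 10 cGy arrays and sharing their untreated arrays, 100 cGy gave 6 called genes of 8675 (0.0692%; 5 higher, 0.0576%, and 1 lower, 0.0115%). At an unadjusted p under 0.05 there were 538 (6.2%), 181 higher (2.09%) and 357 lower (4.12%). Mdm2 rose by 0.45 ± 0.08 (SE, n = 12 against 12; limma, Benjamini-Hochberg adjusted p = 0.00652), Cdkn1a by 0.43 ± 0.08 (adjusted p = 0.00794) and Phlda3 by 0.33 ± 0.06 (adjusted p = 0.00794). Anxa8, an annexin relative of Anxa2, rose by 0.31 ± 0.05 (adjusted p = 0.00652), and Slc19a2, a thiamine transporter and p53 target, rose by 0.39 ± 0.08 (adjusted p = 0.0331). Stil, a centriole assembly gene, fell by 0.25 ± 0.05 (adjusted p = 0.0482). Leaving out 1 of the 35 arrays at a time lost Stil in 25 cases and Slc19a2 in 12, with adjusted p up to 0.147 and 0.103, and kept the other 4 genes in all. The 10 cGy estimates were 0.03 ± 0.06 for Slc19a2, 0.03 ± 0.05 for Anxa8 and -0.12 ± 0.05 for Stil, none of them called.

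Every 100 cGy array of Mdm2 lay above every untreated and every 10 cGy array of its own line and time. In shRNA cells the 100 cGy arrays read 10.54, 10.43 and 10.43 at 2 h and 9.47, 9.44 and 9.43 at 24 h. In vector cells they read 10.69, 10.60 and 9.98 at 2 h and 8.90, 8.97 and 8.98 at 24 h. The group means of 100 cGy and untreated arrays lay further apart at 2 h than at 24 h in both lines, a difference between times that was not tested.

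Tested directly, 100 cGy against 10 cGy called 0 genes of 8675 (0%) by limma, with 221 (2.55%) at an unadjusted p under 0.05. Mdm2 was 0.42 ± 0.08 higher after 100 cGy (95% interval 0.26 to 0.59; Benjamini-Hochberg adjusted p = 0.058), and Anxa8 was 0.27 ± 0.05 higher (adjusted p = 0.0879). For Cdkn1a the difference between doses was 0.29 ± 0.08 (95% interval 0.13 to 0.45; adjusted p = 0.894), and for Phlda3 it was 0.20 ± 0.06 (adjusted p = 0.999). Trp53inp1, a p53-induced regulator of cell death picked out after its values were seen, gave -0.10 ± 0.16 after 10 cGy and 0.69 ± 0.15 between the doses (adjusted p = 0.188). Among 10 alternatives other than leaving out single arrays, 7 called Mdm2 between the doses, with Anxa8 among the calls in 2 and Trp53inp1 in 3.

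Over the whole p53 list, 33 of 40 listed genes were tested and 0 were called after 10 cGy. At an unadjusted p under 0.05, 5 of 33 (15.2%) stood against 9.34% of all genes. They were Phlda3, Rps27l (a small ribosomal protein relative induced by p53; 0.10 ± 0.04), Mgmt (a DNA repair methyltransferase; 0.14 ± 0.06) and Dda1 (0.18 ± 0.07; its place on the list is doubtful) above 0 and Ercc5 (an excision repair nuclease; -0.20 ± 0.09) below 0. The list's median was 0.02 after 10 cGy, against -0.01 over all genes, with 18 members above 0 and 15 below. Without the vector 2 h replicates 3 it was -0.00. After 100 cGy the median was 0.14, against -0.01 over all genes. There 4 members were called, where 0.0692% of all genes were. At an unadjusted p under 0.05 there were 13, all 13 higher, where 2.09% of all genes were higher. Of the 4 genes nearest to the threshold above 0 after 10 cGy, only Phlda3 was called after 100 cGy.

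**Figure D2:**
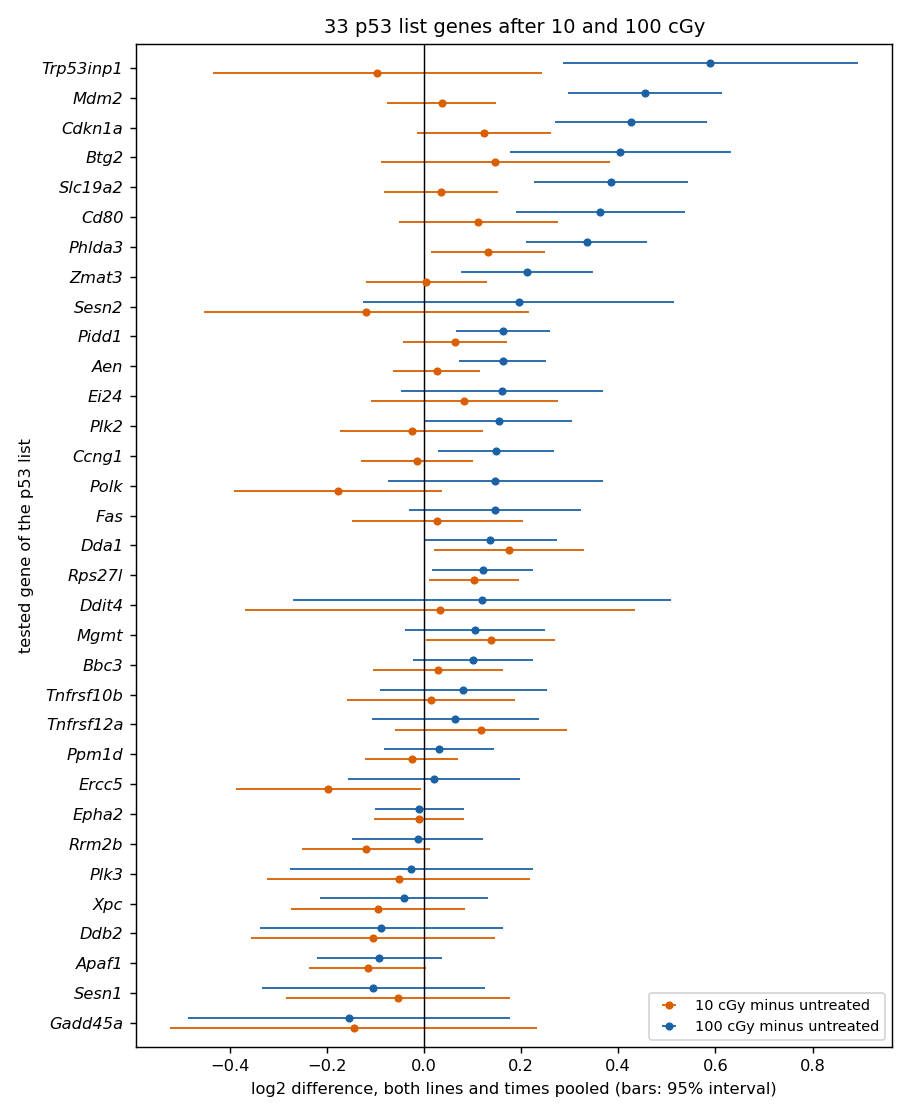
Pooled log2 difference from untreated cells, with 95% intervals, for the 33 tested genes of the p53 list after 10 cGy (orange) and 100 cGy (blue), ordered by the 100 cGy estimate. The 10 cGy intervals of Mdm2 and Cdkn1a end at 0.15 and 0.26, below their 100 cGy intervals, which start at 0.30 and 0.27; both doses share the untreated arrays.

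None of the genes nearest to the threshold after 10 cGy was on the p53 list. By rule, the 12 higher and 12 lower genes with the smallest p are described, and none of them was called (limma, Benjamini-Hochberg adjusted p between 0.366 and 0.386). They were ranked on this contrast, so their differences are a description.

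Ndufb1, a subunit of respiratory complex I (chr12:101968096-101975738), led the higher genes. Its untreated shRNA arrays read 7.0, 7.11 and 7.0 at 2 h against 7.27, 7.09 and 7.17 after 10 cGy, and 6.70, 6.61 and 6.48 at 24 h against 6.84, 6.68 and 6.91. Its untreated vector arrays read 6.76, 6.92 and 6.68 at 2 h against 7.02, 6.93 and 7.33, and 6.77, 6.94 and 6.79 at 24 h against 7.09 and 7.07. The vector sets do not overlap at either time, and the shRNA sets overlap at both. The pooled difference was 0.22 ± 0.05 (SE, n = 11 against 12), or 1.17-fold (limma, Benjamini-Hochberg adjusted p = 0.366). Its exact permutation p within strata, two-sided and unadjusted, was 1.875e-04, where the smallest that 80000 permutations can give is 2.5e-05. Ndufb1 was picked by its small p on these same arrays, so the permutation p is no separate support.

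The other higher genes ranged from 0.16 to 0.34. They include Cystm1 (0.34 ± 0.10), the growth factor Fgf4 (0.29 ± 0.09), the ERK pathway scaffold Ksr1 (0.22 ± 0.06), the ADP-ribose hydrolase Macrod1 (0.22 ± 0.07), and the epidermal genes Krt23, a keratin (0.22 ± 0.06), and Tgm3, a transglutaminase of the cornified envelope (0.21 ± 0.07). Ctnnbip1, an inhibitor of beta-catenin binding to TCF, gave 0.19 ± 0.06, and Parvg, a parvin of focal adhesions, 0.19 ± 0.06. Stac2, Zbtb8a and the organic anion transporter Slc22a13 completed the set with 0.16, 0.21 and 0.20. Most are dim: Krt23, Macrod1 and Slc22a13 had means of 4.32, 4.24 and 4.24 in untreated cells, just under the low-signal limit of 4.35. Tgm3 (4.77), Zbtb8a (4.85), Parvg (4.88), Fgf4 (5.02) and Cystm1 (5.09) lay not far above it.

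Among the lower genes, Syne1 (nesprin-1, which links the nucleus to the cytoskeleton) read 6.52, 6.25 and 6.42 in untreated shRNA cells at 2 h against 5.99, 6.12 and 6.17 after 10 cGy. In vector cells at 24 h it read 6.14, 6.26 and 6.17 against 6.08 and 5.93. Neither set overlaps, while those of the other 2 strata do or touch, and the pooled difference was -0.22 ± 0.05. Nktr, a cyclophilin-related protein with a serine- and arginine-rich domain, gave -0.33 ± 0.07, and its shRNA arrays were separate at both times (7.24, 7.20 and 7.32 against 6.85, 6.50 and 6.74 at 2 h; 7.44, 7.21 and 7.39 against 7.17, 6.98 and 7.06 at 24 h).

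Dst (dystonin, a giant cytoskeletal linker) had the lowest estimate of the set, -0.38 ± 0.09. It was separate at 2 h in shRNA cells (7.92, 7.45 and 7.34 untreated against 7.27, 7.10 and 7.08) and in vector cells (7.69, 7.44 and 7.92 against 7.23, 7.26 and 6.95), and overlapped at 24 h in both lines. Aqr, a spliceosomal helicase, gave -0.22 ± 0.05 and Ints6, a subunit of the Integrator complex that processes small nuclear RNAs, -0.22 ± 0.05. Mdn1, a giant ATPase of ribosome assembly, gave -0.26 ± 0.06, the repressor Zbtb20 -0.31 ± 0.07 and the ubiquitin ligase Cbl -0.28 ± 0.07. Ankhd1 (-0.36 ± 0.08), Fryl (-0.21 ± 0.05), Paxbp1 (-0.28 ± 0.07) and the complement protease C1s1 (-0.18 ± 0.05) complete the set.

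Of the 24 genes, 23 had the same sign in all 4 strata, with Slc22a13 (-0.01 in vector cells at 24 h) the exception; genes with small pooled p-values tend to have this by construction. The 100 cGy estimates, which share the untreated arrays, had the sign of the pooled difference in 23 of the 24 genes. C1s1, at 0.10 after 100 cGy, was the exception, and Dst and Ndufb1 gave -0.18 and 0.11. Because the untreated arrays are shared, this count is only a description. In vector cells at 24 h most of the lower genes lay closest to 0, such as Aqr at -0.02 and Zbtb20 at -0.09. Other probe sets above the low-signal limit had the sign of the one used in 2 of 2 cases for the higher and 11 of 13 for the lower genes.

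**Figure D3:**
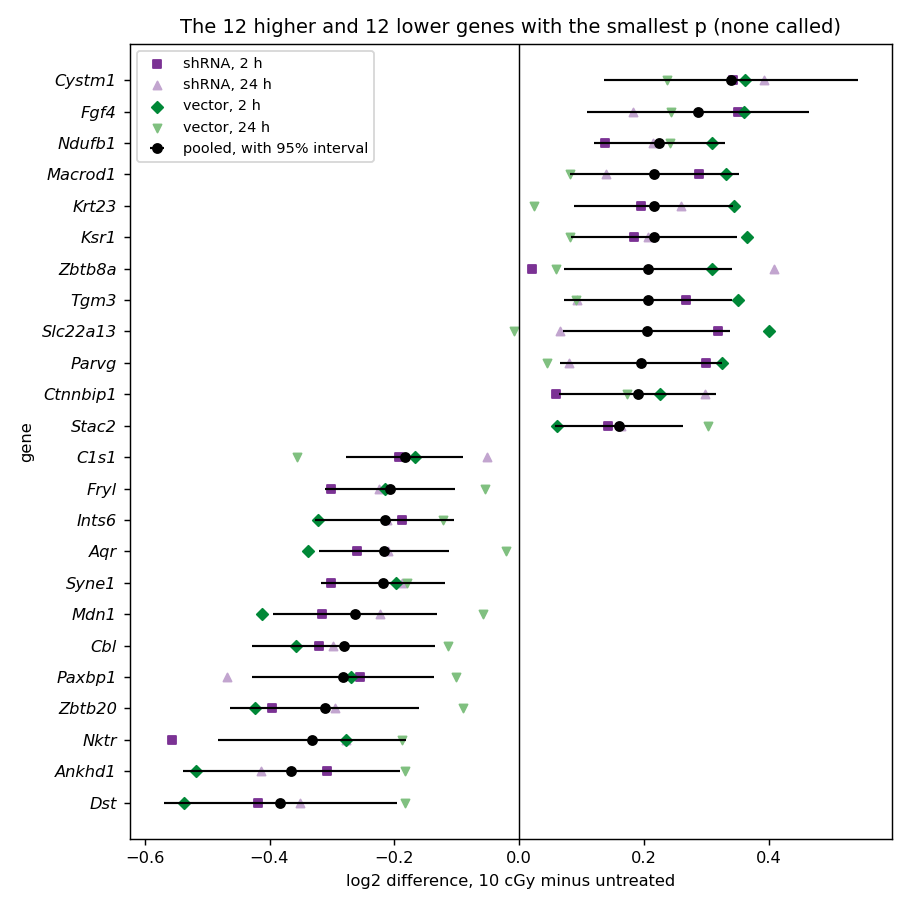
Pooled log2 difference between 10 cGy and untreated cells, with its 95% interval (black), for the 12 higher and 12 lower genes with the smallest p, and the estimate in each stratum (coloured symbols). All points but that of Slc22a13 in vector cells at 24 h lie on the side of their pooled value; no gene was called.

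Among the 24, the lower genes sit in longer loci than the higher ones, with median genomic spans of 94800 and 21600 bases. Spans reached 530501 bases for Syne1 and 758704 for Zbtb20, against 7643 for Ndufb1 and 3860 for Fgf4. Across 8670 tested genes with a RefSeq span, sorted into 5 bins of 1734, the median response went in order from 0.03 in the shortest bin (up to 7402 bases) to -0.05 in the longest (from 59868 bases). Of the genes at an unadjusted p under 0.05, 65 lay higher and 27 lower in the shortest bin, against 24 higher and 288 lower in the longest. Pearson's r between the response and log10 span was -0.31 across genes, which share arrays and are not independent replicates. The order was not particular to 10 cGy. After 100 cGy, against the same untreated arrays, the bin medians went in order from 0.02 to -0.03, with r of -0.20. At an unadjusted p under 0.05 by limma, 57 genes then lay higher and 30 lower in the shortest bin, against 28 higher and 106 lower in the longest. This view was chosen after the values were seen and has no test.

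The same order of bin medians held in each of the 4 strata, which share no array. In shRNA cells the shortest and longest bins had medians of 0.00 and -0.06 at 2 h and 0.03 and -0.05 at 24 h. In vector cells they had 0.05 and -0.08 at 2 h and 0.03 and -0.01 at 24 h. With each array centred on its median the pooled values moved to 0.06 and -0.02, so the sign within a bin depends on the scaling; centring cannot change the difference between bins.

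RNA quality was read from the control probe sets. The difference between the 3′ and 5′ Gapdh control probe sets, which grows when RNA is degraded or copied incompletely, ran from -0.09 to 0.59 (median 0.03) on untreated and from -0.02 to 0.11 (median 0.02) on 10 cGy arrays. Its part in the order of the bins was not tested beyond the values that follow. The group difference within strata was -0.07 (exact permutation p = 0.241, two-sided, n = 11 against 12). Untreated vector 2 h replicate 3 (0.59) and untreated shRNA 2 h replicate 1 (0.31) lay highest. Without both, r was -0.29 and the outer bin medians were 0.03 and -0.04; with the Gapdh difference as a covariate r was -0.29. On single arrays the median signal of the longest bin minus that of the shortest overlapped between untreated (-0.27 to 0.04) and 10 cGy arrays (-0.30 to -0.03). Within strata its mean was lower after 10 cGy in all 4: -0.11 against -0.06 and -0.11 against -0.01 in shRNA cells at 2 and 24 h, and -0.18 against -0.06 and -0.28 against -0.22 in vector cells.

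**Figure D4:**
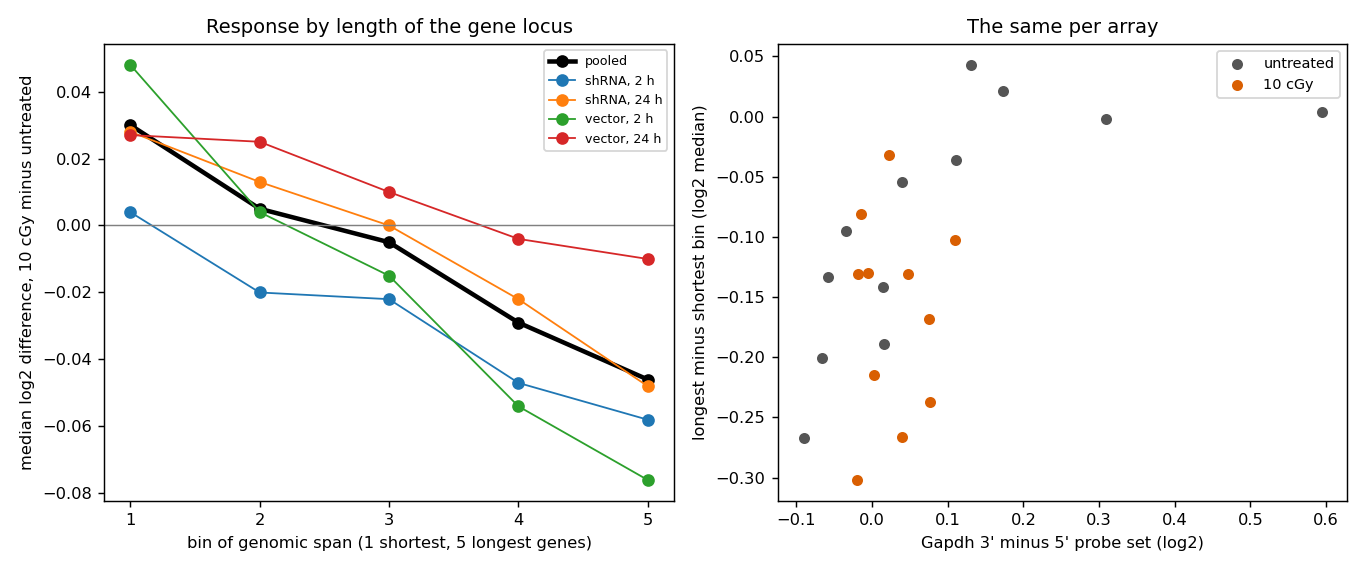
Left, median log2 difference between 10 cGy and untreated cells in 5 bins of 1734 genes by genomic span, pooled (black) and in each stratum. Right, for each of the 23 arrays, the median of the longest minus the shortest bin against the Gapdh 3′ minus 5′ difference (both log2); medians fall from bin 1 to bin 5 in each stratum, and the array values of both groups overlap.

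None of the 26 gene lists had a called member after 10 cGy. The lists were not matched for genomic span, and the span bins of all genes had medians from 0.03 (shortest) to -0.05 (longest). The part of span in the list medians below was not tested. DNA repair and damage signalling genes had a median of -0.05, with 7 of 38 tested members above 0 and 8 (21.1%) at an unadjusted p under 0.05, 7 of these lower; of all genes, 46.1% lay above 0 and 9.34% were at that p, 7.12% lower. Atm, the double-strand break kinase, gave -0.21 ± 0.06 (limma, unadjusted p = 9.86e-04, Benjamini-Hochberg adjusted p = 0.386), with -0.35 in shRNA cells at 2 h, -0.26 in vector cells at 2 h and -0.10 at 24 h in both. Its arrays separated only in shRNA cells at 2 h, at 7.39, 7.32 and 7.25 untreated against 7.13, 6.83 and 6.94. Rad52 and Brca2, of homologous recombination, gave -0.30 ± 0.10 and -0.14 ± 0.06, and Ercc2, a helicase of excision repair, gave 0.17 ± 0.06.

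Mitotic genes had a median of -0.03 over 40 tested members, with 7 (17.5%) at an unadjusted p under 0.05, 1 higher and 6 lower, against 9.34% of all genes. Mki67, the proliferation antigen Ki-67, gave -0.18 ± 0.05 (limma, Benjamini-Hochberg adjusted p = 0.386). The centromere proteins Cenpf and Cenpe gave -0.16 ± 0.05 and -0.31 ± 0.11, and the spindle midzone protein Prc1 -0.16 ± 0.06. After 100 cGy the list's median was -0.08, with 13 members lower at that level and 0 higher, where 4.12% of all genes were lower. DNA replication genes had a median of -0.01 over 42 tested members, as did all genes. After 10 cGy 4 of them (9.52%) were at an unadjusted p under 0.05, near the 9.34% of all genes. Of these, 1 lay higher and 3 lower, with the polymerase Pole at -0.16 ± 0.05.

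Extracellular matrix and mesenchymal genes had a median of -0.08 over 37 tested members (-0.05 without the vector 2 h replicates 3), of which 30 lay below 0 and 14 (37.8%) below 0 in all 4 strata, against 13% of all genes. Mmp13 (collagenase 3) gave -0.25 ± 0.07 (adjusted p = 0.386), although it was under the low-signal limit on every shRNA array of the comparison. In vector cells Mmp13 read 8.02, 7.92 and 7.89 untreated at 2 h against 7.86, 8.02 and 7.65, and 8.73, 8.70 and 8.55 at 24 h against 8.22 and 8.13, separate at 24 h only. The collagens Col6a2, Col3a1 and Col5a1 gave -0.14 ± 0.04, -0.14 ± 0.05 and -0.13 ± 0.05. The list's median was 0.00 after 100 cGy.

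Splicing and RNA processing genes had a median of -0.04 (44 tested, 8 or 18.2% at an unadjusted p under 0.05, 1 higher and 7 lower), led by Sf3b1 (-0.13 ± 0.04), Ddx17 (-0.10 ± 0.03) and Luc7l3 (-0.15 ± 0.06). Cholesterol synthesis genes had a median of -0.07 (24 tested, 2 or 8.33% at that level, both lower, near the 9.34% of all genes), with Hsd17b7 at -0.15 ± 0.06 and the fatty acid synthase Fasn at -0.12 ± 0.05. On the other side, respiratory chain genes had a median of 0.03, with 28 of 39 tested members above 0 (71.8%, against 46.1% of all genes) and 12 above 0 in all 4 strata (30.8%, against 9.42% of all genes). Ndufb1 was not on that list. The listed members at an unadjusted p under 0.05 were Cox8a (0.17 ± 0.08) and, lower, Ndufs1 (-0.10 ± 0.04). Ribosomal protein genes had a median of 0.03 with 24 of 35 above 0 (68.6%) and 13 above 0 in all 4 strata (37.1%), and 1 lower at an unadjusted p under 0.05, Rpl12 (-0.20 ± 0.09). Without the vector 2 h replicates 3 the respiratory and ribosomal medians were 0.02 and 0.01, and without the 2 untreated arrays of high Gapdh difference 0.03 and 0.01. With each array centred on its median, the matrix, cholesterol, splicing and repair medians were -0.05, -0.03, -0.01 and -0.02, and the respiratory and ribosomal medians 0.06 and 0.06, around an all-gene median of 0.02.

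Lists of acute stress responses had medians between -0.04 and 0.02. Immediate early genes (30 tested) had 1 member at an unadjusted p under 0.05, Egr1 at -0.19 ± 0.07, and a median of 0.02, which became -0.04 without the 2 untreated arrays of high Gapdh difference. NF-kB inflammatory genes (28 tested) had 0 members at that level and a median of -0.01. Interferon response genes (18 tested) had a median of -0.02, which became 0.03 without those 2 arrays, with Trim30a at -0.22 ± 0.07 and Ifitm3 at 0.13 ± 0.05, and NRF2 antioxidant genes (26 tested) had Cbr3 at 0.10 ± 0.05 and Txn1 at 0.08 ± 0.04. Heat shock, unfolded protein, hypoxia, apoptosis, clock and actin lists had medians between -0.04 and -0.00. That of apoptosis genes was -0.03, and -0.01 without those 2 arrays. The annexin and S100 list (20 tested) had a median of 0.02, with S100a16 at 0.12 ± 0.04, and 6 tested histone genes a median of 0.03. Marker lists of other cell types had few members above the low-signal limit: 14 epithelial, 8 leukocyte, 5 muscle and 3 endothelial genes, with medians of 0.04, 0.08, 0.04 and 0.04 and no member called. The 16 reference genes had a median of -0.01.

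**Figure D5:**
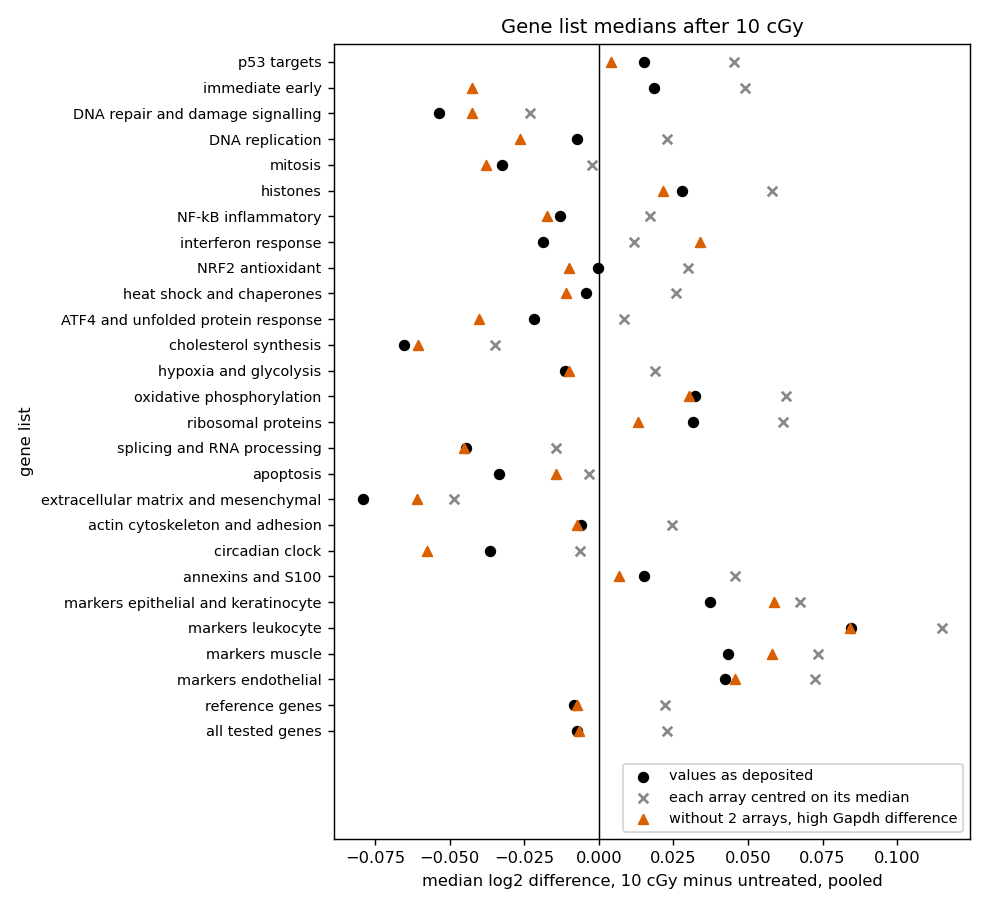
Median log2 difference between 10 cGy and untreated cells, pooled over lines and times, for each of the 26 gene lists and all tested genes, as deposited (black), with each array centred on its median (grey crosses) and without the 2 untreated arrays of high Gapdh 3′ minus 5′ difference (orange). All medians lie between -0.08 and 0.11, and centring shifts each of them upward by about the same amount.

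Within single strata, 10 cGy called 1 gene in each of 2 strata and 0 in the others, by limma on the 8 group means of the same 23 arrays. In shRNA cells at 2 h Ttll3, a tubulin glycine ligase, was called (1 of 8675 genes, 0.0115%; 339 at an unadjusted p under 0.05, 3.91%). It read 5.88, 6.02 and 6.13 on untreated and 5.33, 4.87 and 5.02 on irradiated arrays, without overlap, and fell by 0.94 ± 0.15 (SE, n = 3 against 3; Benjamini-Hochberg adjusted p = 0.0325). In vector cells at 2 h Ttll3 read 3.92, 4.11 and 4.15 against 4.15, 4.08 and 4.65, a dim signal with a difference of 0.23 ± 0.15, and at 24 h the differences were -0.19 and -0.08. Its pooled difference was -0.25 (adjusted p = 0.514). With the mean of its probe sets the shRNA 2 h difference shrank to -0.52 (adjusted p = 0.0127). The Ttll3 call was lost with an adjusted p of 0.0559 with the Gapdh covariate, 0.0954 without the 2 untreated arrays of high Gapdh difference, 0.171 when the fit held the 6 arrays of the stratum alone, and up to 0.514 when 1 array was left out. Such losses came with 11 of 23 arrays: in shRNA cells untreated 2 h replicates 1, 2 and 3, untreated 24 h replicates 2 and 3, 10 cGy 2 h replicates 2 and 3 and 10 cGy 24 h replicates 1 and 2, and in vector cells untreated 2 h replicate 2 and untreated 24 h replicate 1.

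In vector cells at 24 h Saa3, an acute phase serum amyloid, was called (1 of 8675 genes, 0.0115%; 75 at an unadjusted p under 0.05, 0.865%). It read 9.13, 9.21 and 9.20 on untreated arrays and 8.18 and 8.45 on the 2 irradiated arrays, and fell by 0.86 ± 0.14 (SE, n = 2 against 3; limma, Benjamini-Hochberg adjusted p = 0.0243). In shRNA cells at 24 h its arrays separated the other way, at 6.04, 5.83 and 6.09 untreated against 6.19, 6.33 and 6.21 (0.26 ± 0.12, adjusted p = 0.998). At 2 h its irradiated shRNA arrays lay lower, at 6.75, 6.78 and 6.88 untreated against 6.40, 6.75 and 6.69, the nearest equal to 2 decimals. Its vector arrays at 2 h overlapped. Its pooled difference was -0.16 ± 0.10. The Saa3 call was lost with median centring (adjusted p = 0.0647), when the fit held its 5 arrays alone (0.121), and without any single one of the 5 arrays of its stratum (up to 1).

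In shRNA cells at 24 h limma called 0 genes (0%; 270 at an unadjusted p under 0.05, 3.11%), and in vector cells at 2 h also 0 (0%; 423, 4.88%). The vector 2 h count rests on its replicates 3: without the untreated one, 4 genes were called, and without the 10 cGy one 5. The difference between the lines in their 10 cGy response was called for 0 genes (0%; 95 at an unadjusted p under 0.05, 1.1%), as was the difference between 24 h and 2 h (0%; 261, 3.01%), both by limma. For Mdm2 the response of shRNA minus vector cells was -0.18 and that of 24 h minus 2 h was -0.16, and for Cdkn1a these were -0.20 and 0.09, with adjusted p at or near 1. The precision of these tests was lower than that of the pooled one: the interval of a stratum's difference had a median half-width of 0.26 to 0.29.

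How alike the strata were differs between pairs. Across 8675 genes, the 10 cGy responses of strata that share no array had Pearson's r of 0.49 between shRNA and vector cells at 2 h, 0.33 between shRNA cells at 24 h and vector cells at 2 h, and 0.24 between shRNA cells at 2 h and 24 h. The vector 24 h response, the one with 2 irradiated arrays, had r of -0.05, 0.05 and 0.01 with the other strata. Genes share arrays within a stratum, so these values carry no p. The 2 untreated arrays of high Gapdh difference lie in the 2 h strata of shRNA and vector cells (0.31 and 0.59). The r values are given with them only, and their part in r was not tested. Over all genes, 817 lay higher and 1124 lower in all 4 strata.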

How the data were processed

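RNA of JB6 cells was measured on Affymetrix mouse arrays with 22690 probe sets. The submitters' processing notes name RMA. Its version and the model of the array are not stated in the labels. The authors deposited log2 signals (1.84 to 14.03), used unchanged, without 64 control probe sets. The platform annotation gives 1 symbol for 20380 probe sets, several for 691 and none for 1555. Only the first kind was used, and 20351 matched RefSeq (GRCm38.p6) by Entrez number. Each of 12393 genes is its brightest probe set, and the 30% with the lowest mean (limit 4.35) were left out, leaving 8675.

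The pooled test was limma 3.58.1 (R 4.3.3; lmFit and eBayes, two-sided, 18 residual degrees of freedom) on 23 arrays with line and time as a joint block of 4 levels. Strata and their differences came from the 8 group means of the same arrays, and doses from 35 arrays with those of 100 cGy. The Benjamini-Hochberg adjustment ran over all tested genes, with a threshold of 0.05. Exact permutations (80000) moved dose labels within blocks. The scripts were tested on simulated data. Members, gene lists and tests were chosen with earlier results of these data known. Named genes are, by rule, the 12 higher and 12 lower with the smallest pooled p, called genes of each comparison, for each list up to 4 members leading by p, and always Cdkn1a, Mdm2, Ccng1, Phlda3 and Anxa2; others are said to be picked after their values were seen. Same-numbered replicates were not treated as pairs in the main tests. Of 11 pairs, 6 had a correlation of deviations over 0.1, and 5 matched their own number best. Some sharing between same-numbered samples is therefore possible, and a fit with a replicate block is among the alternatives. Figures used matplotlib 3.10.9 (Python 3.11.15).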

Additional observations from a re-analysis of the deposited data

Results flagged for a closer look

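Arrays at 6 h after 10 cGy were outside the comparison. Of the p53 and 100 cGy genes, Phlda3 lay above all 6 untreated arrays of the same line on all 3 arrays, both in shRNA cells (9.60 to 9.77 against 9.34 to 9.60, difference of means 0.22, the lowest touching the range after rounding) and in vector cells (9.17 to 9.35 against 8.70 to 9.07, 0.36). Anxa8 did so in vector cells only (7.96 to 8.04 against 6.54 to 7.63, 0.86), as did Slc19a2 (8.11 to 8.22 against 7.57 to 8.02, 0.40). One of these shRNA arrays, 10 cGy 6 h replicate 1, had a Gapdh 3′ minus 5′ difference of 1.06, the highest of the 47 arrays; its part in the result was not tested. Stil, called lower after 100 cGy, lay below all 6 untreated arrays in shRNA cells (5.74 to 6.15 against 6.21 to 6.76, -0.65). Cdkn1a, Mdm2 and Ccng1 overlapped the untreated range in both lines. Apart from them, Phlda3 and Slc19a2, no member of the p53 list was looked at. Of 34 genes looked at per line, among them the 24 leading genes, 3 in shRNA and 6 in vector cells lay above all untreated arrays. Nktr and Stil in shRNA cells and C1s1 in vector cells lay below them. Those above in shRNA cells include Ints6, which was lower after 10 cGy in the pooled comparison. The 24 were ranked on a contrast with these same untreated arrays. The share of all tested genes that separated in this way was not counted, so these counts are only a description. The untreated arrays were taken at 2 and 24 h, so dose and time in culture cannot be told apart at 6 h, and no test was made. The difference between lines was not tested.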

How the results depend on the processing

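The pooled count of 0 called genes held in all 39 alternatives, among them each left-out array and each line or time alone, and none of 925 values of the 24 leading genes changed sign. The unadjusted count was 549 to 1061 with 1 array left out, 157 in vector cells alone, 815 in shRNA cells alone, 772 at 2 h alone and 271 at 24 h alone. In the shRNA 2 h stratum (1 call), 0 genes were called with the lower 50% of genes left out, the replicate block, the Gapdh covariate and without the high-Gapdh arrays, 116 with array weights, 2 without the vector 2 h replicates 3, and 0 to 2 with 1 array left out. In the vector 2 h stratum (0 calls) these were 53 with array weights, 8 without replicates 3, 4 without the high-Gapdh arrays and 0 to 5 with 1 array left out. In the vector 24 h stratum (1 call) centring, the replicate block and a fit of only the compared groups gave 0, and leaving 1 array out 0 to 1. Without the vector 2 h replicates 3 the line difference had 1 call and the time difference 2, and both had 0 to 1 with 1 array left out. For 100 cGy (6 calls) array weights gave 23 and leaving 1 array out 4 to 9. For 100 against 10 cGy (0 calls) the stricter filter, the intensity trend, the Gapdh covariate and leaving out the high-Gapdh arrays each gave 1, array weights and the replicate block 3 each, leaving out replicates 3 gave 2, and 1 array left out 0 to 2. The cause of these shifts was not tested. Leaving out the 2 untreated arrays of high Gapdh difference was chosen after the data were seen. The replicate block changed the pooled 10 cGy count of 0 not at all and gave 907 at an unadjusted p under 0.05.

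Some estimates near 0 changed sign. Mdm2 was -0.053 in shRNA cells alone and -0.047 at 24 h alone. Ccng1 was 0.073 with the mean of its probe sets, 0.023 with array weights, 0.017 with centring, 0.0096 without replicates 3, 0.039 with the Gapdh covariate, 0.028 without the high-Gapdh arrays, 0.039 in vector cells, 0.0015 at 24 h, and -0.046 to 0.019 with 1 array left out. Anxa2 was -0.027 with the mean of its probe sets, -0.0061 with array weights, -0.0047 without replicates 3, -0.024 with the Gapdh covariate, -0.018 without the high-Gapdh arrays, -0.019 at 24 h and -0.012 to 0.025 with 1 array left out. The number of arrays limits the precision throughout.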
